A study of Mus musculus with 8 samples.

Results

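BCL2 family and caspase transcripts were measured in 8 neuroblastomas of LSL-MYCN;Dbh-iCre mice on Affymetrix mouse arrays, 1 for each tumor. The genes were chosen from a list of 9: the survival genes Bcl2, Bcl2l1 and Mcl1, the effectors Bax and Bak1, the BH3-only genes Bcl2l11, Bbc3 and Pmaip1, and the initiator caspase gene Casp8. All probe sets that the platform annotation assigns to exactly 1 of these genes were taken. This gave 25 probe sets of 8 genes, of 34958 single-gene probe sets and 18194 genes in all. Bax had no such probe set and was not analysed here.

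The untreated tumors fell into 2 groups, 2 from the superior cervical ganglion (tumors 7 and 8), a sympathetic ganglion of the neck, and 6 from the adrenal (tumors 1 to 6). Both carry the same alleles: human MYCN under the CAG promoter behind a floxed stop cassette in the ROSA26 locus, and Dbh-iCre, a recombinase active in cells that make dopamine beta-hydroxylase. Tumors without the MYCN transgene and normal adrenals were not analysed here. The colony of the study had a mixed strain background. The labels give no strain, age or sex for a tumor and do not say whether the tumors came from different mice, so that p-values measure the spread between these tumors only.

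Apoptosis through mitochondria is decided by the balance within the BCL2 family. The survival proteins BCL2, BCL-XL (from Bcl2l1) and MCL1 hold back the effectors BAX and BAK, which open the outer mitochondrial membrane and release cytochrome c to the caspases, while BH3-only proteins such as BIM (from Bcl2l11), PUMA (from Bbc3) and NOXA (from Pmaip1) bind the survival proteins and so free the effectors. Caspase-8 starts the other route, from death receptors at the cell surface. MYC proteins are known to sensitize cells to apoptosis, and in human neuroblastoma BCL2 is commonly expressed, whereas CASP8 is often silenced by methylation of CpG-rich DNA at the gene.

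The promoters of the 3 genes that varied most among members detected in at least 5 tumors (Casp8, Bcl2l11 and Bbc3) are shown because they differ in the features of that background, CpG content and the E box CACGTG, the sequence bound by MYC and MYCN. Each is the 250 bases before an annotated start, taken from RefSeq on GRCm38.p6 and written 5′ to 3′ on the strand of the gene. Capitals mark each CG and, in Bbc3, the E box. The windows lie at chr7:16310181-16310430 (plus strand, the third annotated start of Bbc3), chr2:128127325-128127574 (plus strand, the second start of Bcl2l11) and chr1:58802252-58802501 (plus strand, Casp8).
Bbc3: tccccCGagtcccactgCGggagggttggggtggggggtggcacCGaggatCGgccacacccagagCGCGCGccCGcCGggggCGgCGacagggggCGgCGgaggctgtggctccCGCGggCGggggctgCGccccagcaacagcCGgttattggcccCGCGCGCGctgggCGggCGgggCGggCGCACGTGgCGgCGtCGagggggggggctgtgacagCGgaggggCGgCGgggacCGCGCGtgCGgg
Bcl2l11: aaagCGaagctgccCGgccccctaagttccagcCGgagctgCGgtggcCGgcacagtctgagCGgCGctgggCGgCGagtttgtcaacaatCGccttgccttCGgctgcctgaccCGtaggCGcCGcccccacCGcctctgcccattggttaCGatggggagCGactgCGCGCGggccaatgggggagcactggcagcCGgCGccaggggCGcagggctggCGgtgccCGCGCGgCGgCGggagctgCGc
Casp8: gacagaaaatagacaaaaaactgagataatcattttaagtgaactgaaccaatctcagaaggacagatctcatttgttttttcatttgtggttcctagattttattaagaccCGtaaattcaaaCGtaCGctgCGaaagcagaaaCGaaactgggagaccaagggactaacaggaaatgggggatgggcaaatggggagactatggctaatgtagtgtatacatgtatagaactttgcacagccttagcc

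The Bbc3 window held 37 CpG dinucleotides, the Bcl2l11 window 30 and the Casp8 window 5, against a median of 6 (quartiles 2 and 16) over 32851 promoter windows of the same length. The Bbc3 window had more CpG than 97.8% of all windows. For Bbc3 and Bcl2l11, which have several annotated starts, the window shown is the one with the most CpG of its gene. The windows of the first and second Bbc3 starts held 27 and 23 CpG and no E box. The window of the first Bcl2l11 start held 24 CpG. The E box, a palindrome that reads the same on both strands, was found in 1 of the 12 windows of the 7 measured members with an annotated window, 64 bases before the Bbc3 start, and 6.02% of all windows held it. The window of Bax, whose level was not analysed here, held an E box 9 bases before the start. The GC box GGGCGG, searched on both strands, was present in the Bbc3 and Bcl2l11 windows and not in the Casp8 window, against 32.7% of all windows. These matches describe the letters of the windows, and no binding or methylation was measured here. Pmaip1 was not among the windows used.

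Values are log2 expression as deposited by the authors, and the probe set of a gene with the highest average level stands for the gene. A probe set was called detected in a tumor when it lay above the 95th percentile of 86 probe sets on the same array that read receptors for odours, pheromones or taste, whose genes are not expected to be active outside sense organs. This limit lay between 6.71 and 7.21, and 43.1% to 51.7% of probe sets passed it per tumor. Because hybridization differs between probe sets, levels are compared between tumors and not between genes.

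Some tumors stood apart from the rest. In tumor 7, a ganglion tumor, the neuroblast genes were low: Dbh was 9.07 in tumor 7 and 13.13 in tumor 8, against 12.53 to 13.54 in the adrenal tumors, and Th, the first enzyme of catecholamine synthesis, was 10.36 in tumor 7 and 13.93 in tumor 8, against 13.62 to 14.25 in the adrenal tumors. Mycn was 7.96 in tumor 7 and 12.74 in tumor 8, against 11.59 to 12.55 in the adrenal tumors. Whether the mouse Mycn probe set also reads the human transgene was not examined. Averaged over 7 measured sympathetic neuroblast genes, each centred over the tumors, tumor 7 lay at -2.92, whereas the other tumors lay between 0.20 and 0.62. Skeletal muscle genes were higher in both ganglion tumors (1.28 in tumor 7 and 0.67 in tumor 8, on the same centred scale) than in any adrenal tumor (-0.49 to -0.17), and hepatocyte genes were high in tumor 6 alone (5.70). As a measure of RNA integrity, Gapdh read higher at its 3′ than at its 5′ probe set by 5.51 in tumor 1, 1.57 in tumor 7 and 0.47 to 1.14 elsewhere. The same difference of Actb, the gene of beta-actin, was 2.77 in tumor 1, 1.85 in tumor 7 and 0.64 to 1.35 elsewhere. Tumor 7 thus had the second widest difference for both genes. In pieces of tumor, fewer cells of a type and less RNA per cell cannot be told apart.

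The 5 members Bcl2, Bcl2l1, Mcl1, Bcl2l11 and Bbc3 were detected in all 8 tumors, Casp8 in 5 tumors, Bak1 in 4 and Pmaip1 in none. This is 62.5% of the 8 members, near the 54.8% of all genes measured that were detected in all tumors, so the count is not particular to the members. Among the 25 probe sets, 13 passed the limit in every tumor and 6 in no tumor. The detected members include both survival genes and BH3-only genes in every tumor, tumor 7 included, as the plot of member levels by tumor shows. Whether the same cells express both was not measured.

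**Figure D1:**
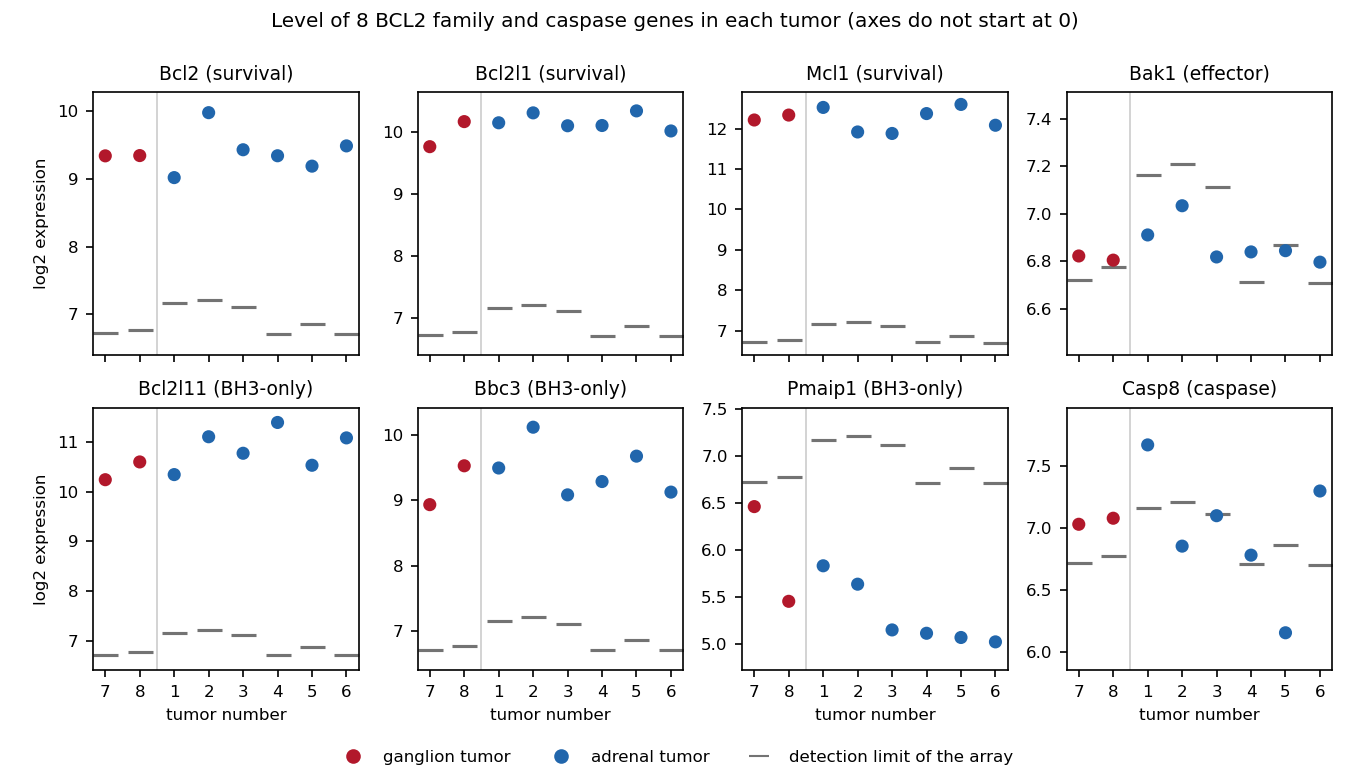
Log2 expression of the representative probe set of 8 BCL2 family and caspase genes in each tumor, with ganglion tumors 7 and 8 in red at the left of each panel, adrenal tumors 1 to 6 in blue, and a grey bar at the detection limit of each array. Bcl2, Bcl2l1, Mcl1, Bcl2l11 and Bbc3 lie above the bars in all 8 tumors, Pmaip1 lies below them in all 8, and Bak1 and Casp8 lie close to them.

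Bcl2, the founding survival gene of the family, was 9.34 in both ganglion tumors, against 9.02, 9.97, 9.43, 9.34, 9.19 and 9.48 in adrenal tumors 1 to 6. Tumor 2 was highest and tumor 1 lowest, and the ganglion tumors lay in the middle of the adrenal range. The mean was 9.39 ± 0.28 (SD, n = 8). The same tumor stood out on the next brightest Bcl2 probe set, 1437122_at, with 9.01 in tumor 2, against 8.27 in tumor 7, 8.06 in tumor 8 and 7.91 to 8.11 in the other adrenal tumors. The third, 1422938_at, was also highest in tumor 2, but spanned only 7.27 to 7.64. Between the 3 Bcl2 probe sets detected in all tumors, Pearson's r over the 8 tumors was 0.71 to 0.80, but Spearman's rho only -0.07 to 0.45, so that they share the high value of tumor 2 rather than an order of the other tumors. The remaining pair, 1440770_at and 1443837_x_at, was detected in 4 tumors each and did not have its highest value in tumor 2.

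Bcl2l1 encodes BCL-XL, a survival protein abundant in neurons. Its detected probe set read 9.77 in tumor 7 and 10.17 in tumor 8, against 10.15, 10.31, 10.10, 10.11, 10.34 and 10.02 in adrenal tumors 1 to 6. Its mean was 10.12 ± 0.18 (SD, n = 8), and 26.1% of all genes tested had a smaller SD. Without tumor 7, which was lowest, the values spanned 10.02 to 10.34. The other 3 probe sets of Bcl2l1 were detected in no tumor.

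Mcl1 encodes a survival protein with a short half-life. It was 12.21 in tumor 7 and 12.33 in tumor 8, against 12.52, 11.92, 11.88, 12.37, 12.60 and 12.08 in adrenal tumors 1 to 6, with a mean of 12.24 ± 0.27 (SD, n = 8). On this probe set tumors 5 and 1 were highest and tumors 3 and 2 lowest, and both ganglion tumors lay inside the adrenal range. All 6 Mcl1 probe sets were detected in every tumor, yet they fell into sets that ordered the tumors differently. The 3 with the suffix x_at, which can share probes with other transcripts, followed each other closely (r 0.96 to 0.98). 1416881_at and 1448503_at followed each other as well (r 0.94), but were highest in tumor 8 and lowest in tumors 5 and 2. 1416880_at was lowest in tumor 1, at 10.81, against 11.61 in tumor 7, 11.82 in tumor 8 and 11.19 to 11.97 in the other adrenal tumors. Over all pairs of Mcl1 probe sets r ran from -0.29 to 0.98. The order of tumors by Mcl1 therefore depends on the probe set, and tumor 1, where 1416880_at was lowest, is the tumor with the wide Gapdh 3′ to 5′ difference, whose part in this value was not tested.

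**Figure D2:**
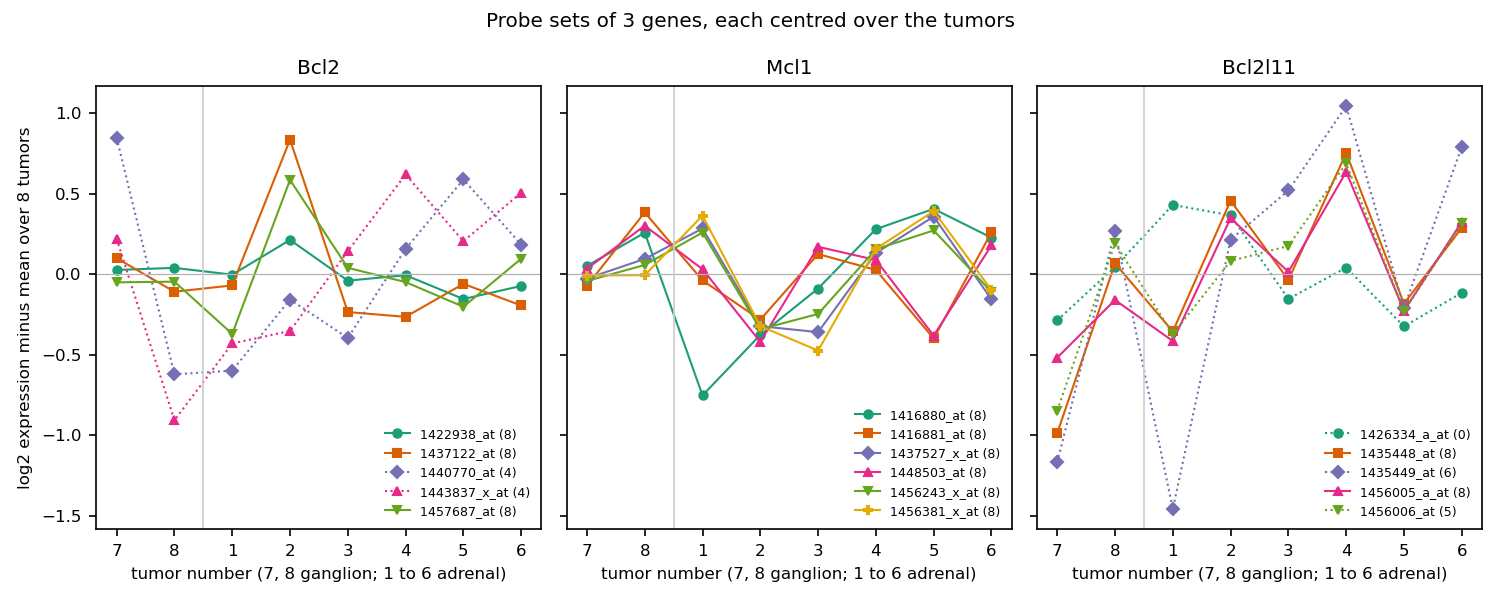
Each line is 1 probe set of Bcl2, Mcl1 or Bcl2l11 over the tumors, as log2 expression minus its mean over the 8 tumors, with the number of tumors in which it was detected in brackets and dotted lines for probe sets not detected in all 8. The Bcl2 probe sets detected in all tumors peak in tumor 2, the Mcl1 probe sets part in tumors 1 and 5, and the 4 detected Bcl2l11 probe sets are high in tumor 4 and low in tumors 1 and 7. In tumors 1 and 7, 1435449_at and 1456006_at of Bcl2l11 lie below the detection limit.

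Bak1 was the only effector of the list that could be measured. Its brighter probe set read 6.82 in tumor 7 and 6.80 in tumor 8, against 6.91, 7.03, 6.82, 6.84, 6.84 and 6.80 in adrenal tumors 1 to 6. These values crossed the detection limit in tumors 4, 6, 7 and 8, and in no tumor when the 99th percentile of those receptor probe sets was taken. The mean was 6.86 ± 0.08 (SD, n = 8), and only 1.13% of the genes tested had a smaller SD. Differences in Bak1 between tumors were not detectable above the background of the arrays.

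Among the BH3-only genes, Bcl2l11 varied most of those detected. It was 10.24 in tumor 7 and 10.60 in tumor 8, against 10.35, 11.11, 10.78, 11.40, 10.54 and 11.09 in adrenal tumors 1 to 6, a mean of 10.76 ± 0.41 (SD, n = 8). Tumors 4, 2 and 6 were high and tumors 7 and 1 low, so that tumor 4 lay 1.15 above tumor 7. On 3 further probe sets of the gene tumor 4 was again highest and tumors 1 and 7 lowest (r 0.84 to 0.94 between the 4). Tumor 2 was high on 1435448_at but not on 1435449_at (7.73). On 1456006_at, detected in 5 tumors, tumor 2 read 7.19, below the limit of that array (7.21). Tumors 1 and 7 were also below their limits on 1456006_at, so that its ranks in these tumors are not measured ones. On 1435448_at, detected in all tumors, Bcl2l11 was 8.97 in tumor 7 and 10.03 in tumor 8, against 9.61 to 10.71 in the adrenal tumors, with tumor 4 highest. The widest range was that of 1435449_at, 6.34 in tumor 7 and 7.78 in tumor 8, against 6.05 to 8.56 in the adrenal tumors, with tumor 1 lowest and below its detection limit, as was tumor 7. The remaining probe set, 1426334_a_at, was detected in no tumor. The low pair combines tumor 7, with its low neuroblast genes (-2.92) and a Gapdh difference of 1.57, and tumor 1, with its Gapdh difference of 5.51. The part of neuroblast content or of RNA integrity in the Bcl2l11 values was not tested.

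Bbc3, the gene of PUMA and a target of p53, had a single probe set. It read 8.94 in tumor 7 and 9.53 in tumor 8, against 9.50, 10.12, 9.09, 9.29, 9.68 and 9.13 in adrenal tumors 1 to 6, a mean of 9.41 ± 0.38 (SD, n = 8). As for Bcl2, tumor 2 was highest, and as for Bcl2l1, tumor 7 was lowest.

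Pmaip1, the gene of NOXA, was 6.46 in tumor 7 and 5.45 in tumor 8, against 5.83, 5.63, 5.15, 5.11, 5.07 and 5.02 in adrenal tumors 1 to 6. None of these values reached the detection limit of its array, although all lay above the log2 limit of 5 that the Methods use. Tumor 7 was the only tumor above the adrenal range. An expressed transcript was not detectable in these tumors by this probe set, which does not show that NOXA is absent.

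Casp8 was 7.03 in tumor 7 and 7.08 in tumor 8, against 7.67, 6.85, 7.10, 6.78, 6.16 and 7.30 in adrenal tumors 1 to 6. It passed the limit in tumors 1, 4, 6, 7 and 8, and in 2 tumors at the 99th percentile. With a mean of 7.00 ± 0.44 (SD, n = 8) its spread exceeded that of 79.6% of the genes tested, and the adrenal tumors held both ends of it, tumor 1 and tumor 5. Casp8 is expressed by many cell types of normal tissue, and the fibroblast and pericyte genes had the same tumors at their ends: their centred mean was -0.05 in tumor 7 and 0.58 in tumor 8, against 1.17 in tumor 1, -1.71 in tumor 5 and -0.23 to 0.26 in the other adrenal tumors. All 6 genes of that list (Col1a1, Col1a2, Col3a1, Dcn, Pdgfrb and Rgs5) were detected in every tumor. Other lists did not share both ends: the endothelial list was lowest in tumor 5 (-0.85) but highest in tumor 8 (0.64, with 0.14 in tumor 1), and the Schwann cell and macrophage lists were lowest in tumor 7 (-0.75 and -0.74). The Schwann cell list came near to sharing them, being highest in tumor 1 (0.56) and second lowest in tumor 5 (-0.65). The macrophage list was second lowest in tumor 5 (-0.50) but highest in tumor 3 (0.34). Casp12, a caspase of the endoplasmic reticulum in rodents, had the same tumors at its ends, with 5.95 in tumor 7 and 7.30 in tumor 8, against 7.67 in tumor 1, 5.70 in tumor 5 and 6.43 to 7.42 in the other adrenal tumors, and was detected in 4 tumors. In tumor 5, at the low end, Casp8 and Casp12 both lay below the limit of that array (6.87). The low ends of both genes are therefore background readings and not measured levels. Tumor 1, at the high end, is also the tumor with the Gapdh 3′ to 5′ difference of 5.51. The part of stromal RNA or of RNA integrity in the Casp8 and Casp12 values was not tested.

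**Figure D3:**
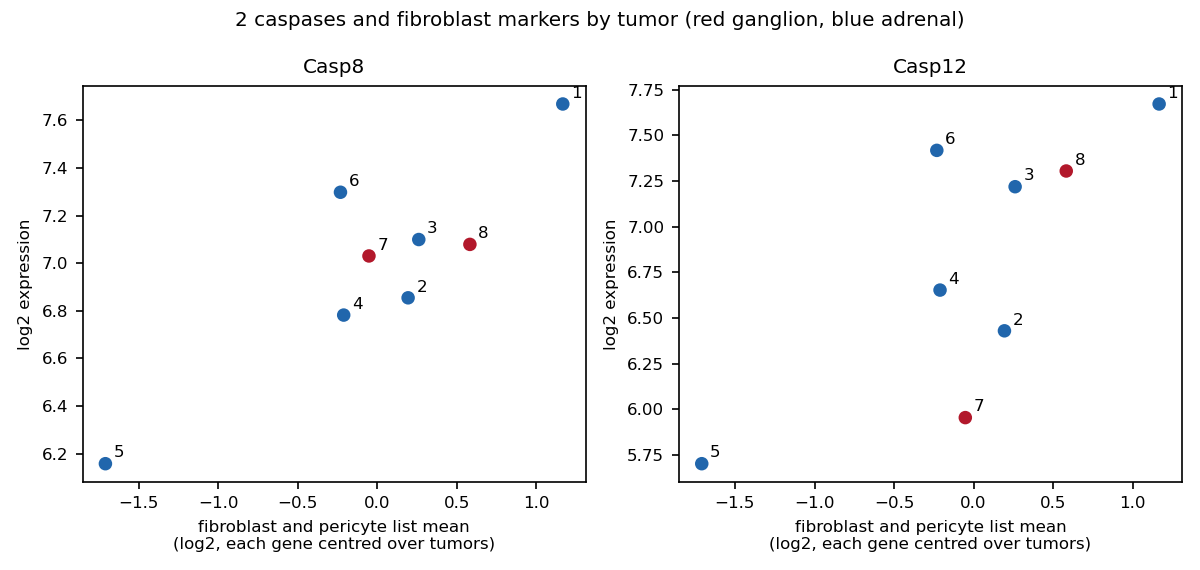
Log2 expression of Casp8 (left) and Casp12 (right) against the mean of 6 fibroblast and pericyte genes, each centred over the 8 tumors, with ganglion tumors in red, adrenal tumors in blue and the tumor number beside each point. Tumor 5 lies lowest and tumor 1 highest on both axes of both panels, and the other tumors lie between without a clear order. In tumor 5 both caspase genes lie below the detection limit of the array.

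The median SD over the 8 tumors was 0.33 for the members and 0.26 for all genes tested. Tumor 7 held the lowest value of 3 of the 8 members (Bcl2l1, Bcl2l11 and Bbc3), where 26.4% of all genes tested were lowest in that tumor. Tumor 2 held the highest value of Bcl2 and Bbc3, and 16.3% of all genes tested were highest in that tumor. Bak1 was highest there as well, but at 7.03 it lay below the limit of that array (7.21), so that its rank is not a measured one.

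Members were also compared with each other over the 8 tumors. Bbc3 and Bcl2l1 followed each other most closely (Pearson's r 0.85, Spearman's rho 0.95). The most opposed pair was Bcl2 and Mcl1 (r -0.79, rho -0.83), which rests on the 1437527_x_at probe set of Mcl1 and on the order of tumors that other Mcl1 probe sets did not share. Pairs with Bak1 or Pmaip1 are not given, since these genes lay near or below the detection limit. The correlations describe 8 points that share array and tissue differences and have no p-value.

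Across 16253 other genes, those with the most similar and the most opposed pattern were listed for each member, again over 8 tumors and without a p-value, since the extreme of so many coefficients is high by selection. Bcl2 was most like Ro60, an RNA-binding protein gene (r 0.95), and most opposed to D530017H19Rik (r -0.99), which was detected in no tumor. Without tumors 1 and 2, the extremes of Bcl2, r with Ro60 was 0.77. Bcl2l1 was most like Nucb2, the nesfatin precursor (r 0.996), and most opposed to Set, a histone chaperone (r -0.98). For Mcl1 these were Cdk7, a kinase of the basal transcription machinery (r 0.96), and Rbbp5, a subunit of histone methyltransferases (r -0.93). Bak1, near background, was closest to the ciliary kinase gene Nek8 (r 0.99) and farthest from Scaf8 (r -0.98).
Of the BH3-only genes, Bcl2l11 had as its nearest gene Pcdhb7, a protocadherin (r 0.93), and as its most opposed Neurl2 (r -0.98), and without tumors 4 and 7 these were 0.95 and -0.94. Bbc3 was nearest to Mkln1os (r 0.99), detected in 3 tumors, and farthest from Atad2b (r -0.99). Pmaip1, detected in no tumor, was nearest to Mrpl28, a protein of the mitochondrial ribosome (r 0.995), and farthest from Ehbp1 (r -0.98). Casp8 was nearest to Ddx58, the gene of the viral RNA sensor RIG-I (r 0.97), detected in 6 tumors, and farthest from Tbc1d17 (r -0.98). Casp8 and Ddx58 had the same order of all 8 tumors. Casp8 lay below the limit in tumors 2, 3 and 5, so that its ranks there are not measured ones. Without tumors 1 and 5, r was 0.92 with Ddx58 and -0.95 with Tbc1d17.

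The only comparison the labels allow is that of ganglion with adrenal tumors, which asks whether levels differ by the site where a tumor arose. No member passed the test of this difference. In the fit of all 16254 genes above log2 5 in at least 2 tumors (limma, Benjamini-Hochberg adjustment), the adjusted p-values of the members were 0.90 to 0.99 and none had an unadjusted p below 0.05, whereas 4.68% of all genes did. Of all genes 0.0185% were called (3 genes, the skeletal muscle genes Acta1 and Tnnt3 and Clvs2, all higher in ganglion tumors). Clvs2 and Tnnt3 lay below the detection limit in every tumor. Without tumor 8 the number of genes called was 951 and without tumor 7 it was 8, a single ganglion tumor being then assumed to vary like the adrenal ones. No member was called in either case.

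**Figure D4:**
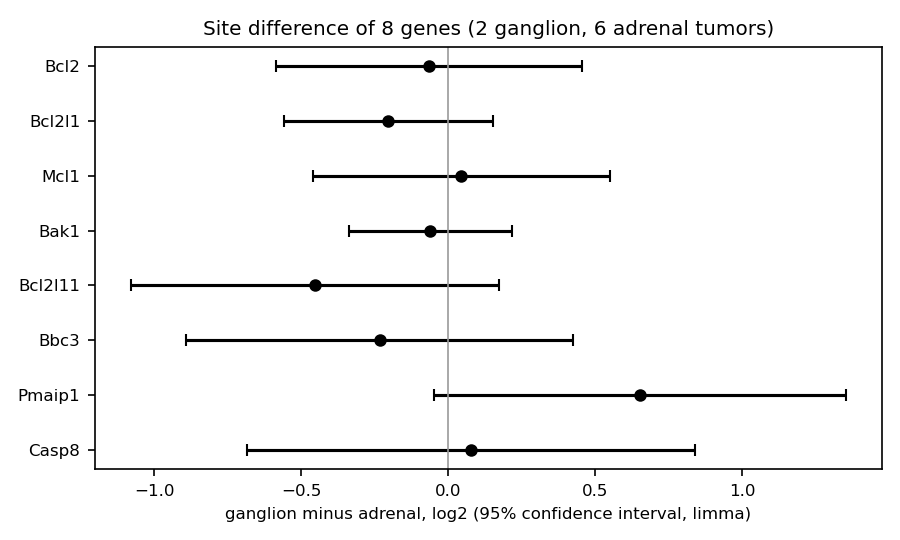
Difference between the 2 ganglion and the 6 adrenal tumors for 8 BCL2 family and caspase genes, as ganglion minus adrenal on the log2 scale, with points for the limma estimate and bars for its 95% confidence interval. Every interval includes 0, and that of Pmaip1, which was detected in no tumor, lies farthest to the right.

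For the survival genes, the ganglion minus adrenal difference was -0.06 for Bcl2 (95% confidence interval -0.59 to 0.46), -0.20 for Bcl2l1 (-0.56 to 0.15) and 0.04 for Mcl1 (-0.46 to 0.55), each on the probe set that stands for the gene. On other probe sets detected in all tumors the intervals reached farther, from -0.65 to 0.64 on 1437122_at of Bcl2 and from -0.48 to 0.89 on 1416880_at of Mcl1. For Bak1 it was -0.06 (-0.34 to 0.22), a value at the background. Intervals of the BH3-only genes and Casp8 were wider and leave room for larger differences: -0.45 for Bcl2l11 (-1.08 to 0.17), -0.23 for Bbc3 (-0.89 to 0.42), 0.65 for Pmaip1 (-0.05 to 1.35) and 0.08 for Casp8 (-0.69 to 0.84). On 1435448_at, the other Bcl2l11 probe set detected in all tumors, the difference was -0.61 (-1.41 to 0.18). Exact permutation of the site labels over the 28 splits of the tumors, two-sided, gave p-values between 0.11 for Pmaip1 and 0.82 for Mcl1 and Casp8, where the smallest possible was 0.036.

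The 2 ganglion tumors did not lie together outside the adrenal range for any member, against 4.42% of all genes. Tumor 7 alone lay outside it for 4 of the 8 members, below for Bcl2l1, Bcl2l11 and Bbc3 and above for Pmaip1, and this was so for 44.9% of all genes. Tumor 8 lay inside the adrenal range for all 8 members, whereas it lay outside it for 16.1% of all genes. Without tumor 7 the differences of Bcl2l1, Bcl2l11, Bbc3 and Pmaip1 were 0.00, -0.27, 0.06 and 0.15. Without tumor 8, which leaves tumor 7 as the only ganglion tumor, those of the same genes were -0.41, -0.63, -0.53 and 1.16. Without tumors 6 and 7, the tumors with the hepatocyte genes and the low neuroblast genes, the differences of Bcl2l11, Bbc3 and Pmaip1 were -0.23, 0.00 and 0.09. When each probe set was tested for itself, 0.0165% of 30285 probe sets were called, and none of the 24 probe sets of members that entered the test was among them (adjusted p 0.99 to 1.00, limma).

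Around the members, 55 other genes of the apoptosis machinery were examined in lists by role. Of these, 48 had a single-gene probe set, 34 passed the limit in every tumor and 8 in no tumor. The other 7 were not analysed here. None of the 46 that entered the site comparison was called. Before adjustment 2 of the 46 had a p below 0.05, Bcl2l13 and Casp2, each with an adjusted p of 0.90 (limma). Among all genes tested 4.68% had such an unadjusted p, so this count is not particular to the lists. Tumor 7 held the lowest value of 19 of the 46 and tumor 1 the highest of 16, where 26.4% and 26.3% of all genes tested had theirs, as the heat map of the apoptosis genes shows. Counts and shares alike include genes below the limit of the array. In these lists they are Casp1, Casp6, Fasl and Tnfrsf10b in tumor 7, and Bik, Casp1 and Tnf in tumor 1.

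**Figure D5:**
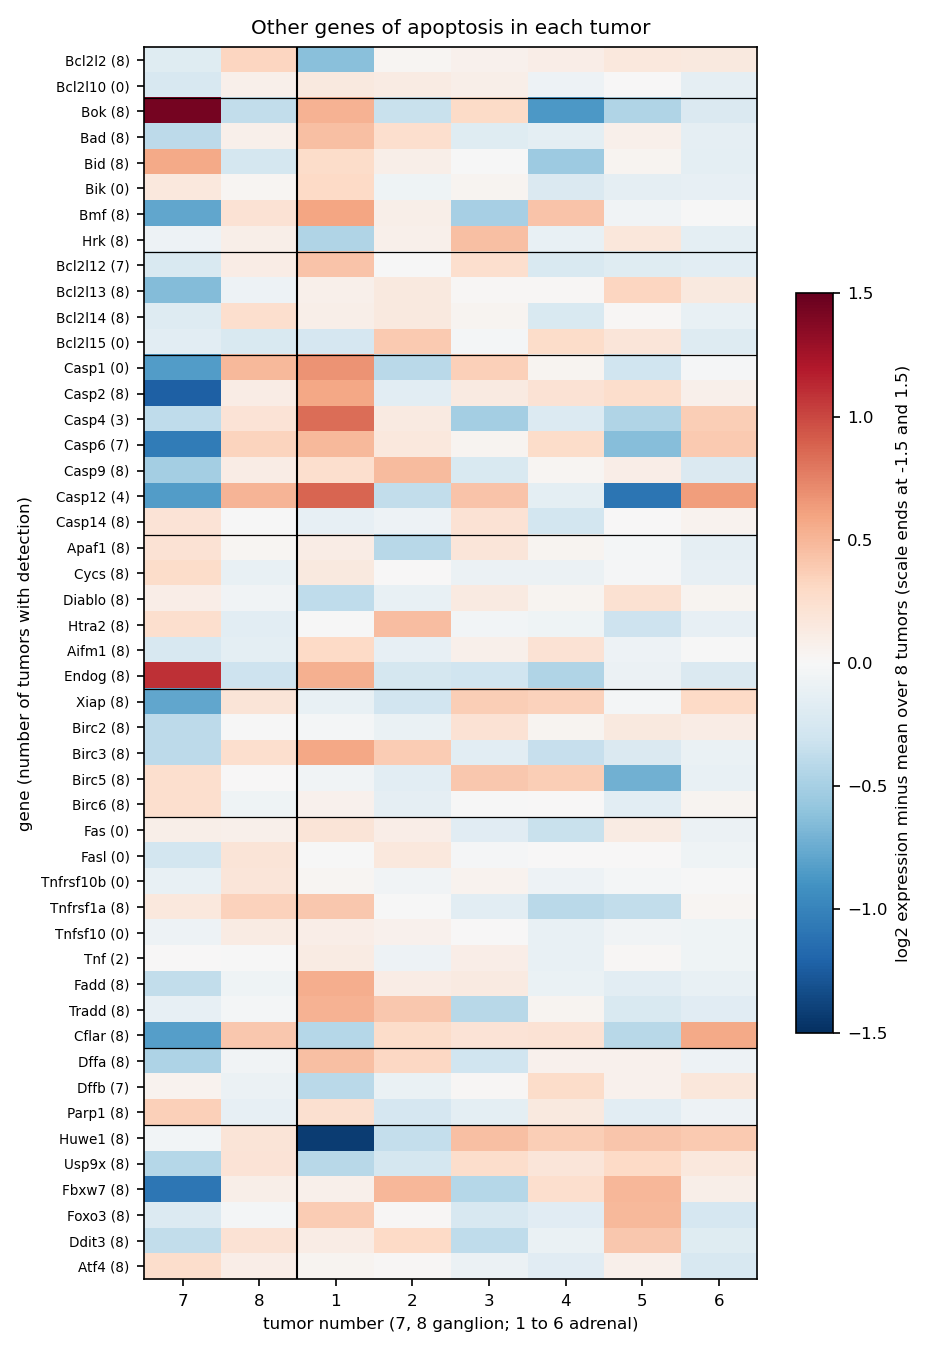
Each row is 1 measured gene of the apoptosis lists, each column 1 tumor with ganglion tumors 7 and 8 at the left, and the colour is log2 expression minus the mean of the gene over the 8 tumors, from blue (below) to red (above), with the number of tumors with detection in brackets and lines between lists. Bok and Endog are high and Casp2 low in tumor 7, and Huwe1 is low in tumor 1.

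Among the other family members, Bcl2l2, which encodes the survival protein BCL-W, was 9.85 in tumor 7 and 10.35 in tumor 8, against 9.41 in tumor 1 and 10.07 to 10.20 in the other adrenal tumors. The survival gene Bcl2l10 was detected in no tumor. Of the 6 other effector and BH3-only genes, 5 were detected in all tumors and Bik in none. Bok, an effector-like gene, had the widest spread of them, with 10.50 in tumor 7 and 8.70 in tumor 8, against 8.20 to 9.59 in the adrenal tumors, and thus was highest in the tumor where Bcl2l11 and Bbc3 were lowest. The site difference of Bok was 0.71 (adjusted p 0.90, limma) with 1 ganglion tumor inside the adrenal range. Bcl2l13, a mitochondrial BCL2-like gene, was 9.92 in tumor 7 and 10.50 in tumor 8, against 10.59 to 10.89 in the adrenal tumors. Bcl2l15 was detected in no tumor.

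Of the 7 other caspases measured, 3 were detected in all tumors, and Casp1, the inflammatory caspase, in none. The initiator Casp2 was 9.16 in tumor 7 and 10.50 in tumor 8, against 10.23 to 10.97 in the adrenal tumors, so that tumor 7 lay 1.07 below all others. Of these 7 genes 5 were highest in tumor 1 and 4 lowest in tumor 7, against 26.3% and 26.4% of all genes tested. The 5 include Casp1, Casp4, Casp6 and Casp12, each below the limit in some or all tumors, and the 4 include Casp1 and Casp6, both below the limit in tumor 7. Both tumors are those named above for RNA integrity and for low neuroblast genes, and the part of either in these values was not tested.

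All 6 apoptosome and mitochondrial factors were detected in every tumor, among them Apaf1, the scaffold of the apoptosome, and Cycs, cytochrome c. Endog, a mitochondrial nuclease, varied most, with 9.78 in tumor 7 and 8.37 in tumor 8, against 9.22 in tumor 1 and 8.23 to 8.60 in the other adrenal tumors. The 5 inhibitors of apoptosis were likewise detected in every tumor. Xiap, a direct inhibitor of caspases, was 10.44 in tumor 7 and 11.41 in tumor 8, against 10.93 to 11.59 in the adrenal tumors.

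On the death receptor route 4 of 9 measured genes were detected in no tumor: Fas and Tnfrsf10b, which encode receptors, and their ligands Fasl and Tnfsf10. Tnfrsf1a, the TNF receptor, and the adaptors Fadd and Tradd were detected in all tumors. Cflar, the gene of the caspase-8 inhibitor FLIP, was also detected in all, with 6.84 in tumor 7 and 8.08 in tumor 8, against 7.25 to 8.25 in the adrenal tumors, a span of 1.40. At the 99th percentile Cflar passed in 5 tumors only, so that the low end of this span lies near the background. Of the caspase substrates, Dffa was 9.33 in tumor 7 and 9.74 in tumor 8, against 9.49 to 10.24 in the adrenal tumors.

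Regulators of the members were detected in all tumors, 6 of 6 measured. Huwe1, a ubiquitin ligase of MCL1 and of MYC proteins, was 10.99 in tumor 7 and 11.23 in tumor 8, against 9.60 in tumor 1 and 10.68 to 11.48 in the other adrenal tumors. Tumor 1 lay 1.07 below all others. Mcl1 on 1437527_x_at was the second highest in that tumor, but its 1416880_at probe set was lowest there, and the Gapdh difference of 5.51 belongs to the same array. Its part in the Huwe1 and Mcl1 values was not tested.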

How the data were processed

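RNA of 8 tumors was hybridized to 1-colour arrays, and the authors deposited log2 expression values per probe set, already background-corrected and normalized between arrays. RMA and Partek 6.6 stand in the submitters' processing notes, but gcRMA in the Methods; which made these values is not settled, and gcRMA would pull low values closer together than RMA. The array images were not used here, and no further normalization was applied. No 2 arrays were identical. The number of arrays limits the precision.

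Probe sets were named from the platform annotation, with symbols updated through Entrez identifiers (34754 matched). Probe sets with several genes (932) or none named (9211) were left out. Each gene was represented by the probe set with the highest mean, as in the Methods, and tested when above log2 5 in at least 2 tumors. The Methods applied log2 5 to gcRMA values. On the deposited values 16254 of 18194 genes passed this filter, so that it removed few genes. The site comparison was fitted in R 4.3.3 by limma 3.58.1 (lmFit, eBayes, Benjamini-Hochberg over all genes or probe sets, threshold 0.05). This step was tested on simulated data. There it recovered 41 of 100 genes with a change of 1 on the log2 scale, so that most changes of that size were missed. It recovered 91 of 100 genes with a change of 2, and 6 false calls were made. The site comparison was also run by exact permutation in scipy 1.17.1. Other values were computed with Python 3.11.15, numpy 2.4.6 and pandas 2.3.3, and plots drawn with matplotlib 3.10.9. Motifs were counted in RefSeq promoter windows.

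Members and lists were chosen with earlier results of these data known. Named are all members, list genes that were called, detected nowhere, at least 1 beyond the other tumors or with the highest SD of their list, the genes most and least like each member, and Mycn, Dbh and Th. Other names serve the background, the measured markers or the counts and were picked with the values known. The alternatives tried were normalization, filter, probe set rule, test, detection limit and each tumor left out.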

Additional observations from a re-analysis of the deposited data

Results flagged for a closer look

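In 8 of 86 sets of values (43 measures, each over the 6 adrenal tumors and over all 8 tumors), 1 tumor lay farther from the rest than Dixon's 95% critical value allows. For values not chosen by their spread, chance gives about 1 in 20 such sets, and sets of the same gene overlap. The list genes among the measures were named in part because their SD was highest or 1 tumor lay apart. The rate of 1 in 20 therefore does not hold for them. The gap is given as a share of the whole range.

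Among members only a Bcl2 probe set, 1437122_at, was affected: tumor 2, at 9.01, lay above all others, with a gap share of 0.814 among the adrenal tumors and 0.669 among all tumors. Tumor 7 was apart for Bcl2l13 (9.92, gap share 0.599) and for Casp2 (9.16, 0.591) among all tumors. Tumor 1 was apart for Bcl2l2 (9.41, 0.836) and Endog (9.22, 0.627) among the adrenal tumors and for Huwe1 (9.60, 0.57) among all tumors. Fasl in tumor 2 (5.44, 0.657 among the adrenal tumors) was below the detection limit in every tumor.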

How the results depend on the processing

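No member passed the threshold in the site comparison under any limma alternative run for it, 14 for Pmaip1, which was left out where detection was required, and 15 for each other member (lowest adjusted p 0.090, Pmaip1 without tumor 8, over a range up to 1.00), or by exact permutation. Signs of small differences turned: Bak1 was 0.07 with the mean of the probe sets of a gene, Bcl2 0.05 without tumor 2, Mcl1 -0.02 without tumor 2, -0.03 without tumor 3 and -0.02 without tumor 8, Casp8 -0.09 without tumor 5 and Bbc3 0.06 without tumor 7. The number of genes called, 3, was 1 when detection in at least 2 tumors was required, 6 with the mean of the probe sets of a gene and 9 without tumors 6 and 7, and 2 to 951 when each tumor was left out in turn; for probe sets, 5 were called and 4 to 1198 when each tumor was left out in turn. The cause was not tested. With log2 5 as the limit, 8 members were above it in all tumors. With the mean of the probe sets of a gene, levels were 7.72 for Bcl2, 6.46 for Bcl2l1, 11.11 for Mcl1, 5.92 for Bak1 and 8.11 for Bcl2l11, since dim probe sets then count equally. No paired analysis was possible because the labels do not say which mouse each tumor came from. Bak1 and Casp8 lay too close to the background for small differences to be measured.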
